A study of Mus musculus with 6 samples.

Results

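The genes described here were 9 identity genes of microglia, the resident macrophages of the brain: Cx3cr1, P2ry12, Tmem119, Csf1r, C1qa, C1qb, C1qc, Aif1 and Trem2. They were chosen by their gene symbols, and each symbol occurred once among the 23282 entries of the deposited tables. All 9 were among the 15239 genes tested. RNA from 1 forebrain hemisphere of each of 6 male C57BL/6J mice of 8 to 10 weeks, without olfactory bulb and cerebellum, was sequenced by QuantSeq 3′ mRNA-Seq, which reads the end of polyadenylated transcripts. Of these mice, 3 were labelled as exposed for 1 h to water avoidance stress (WAS), on a platform surrounded by water, and 3 were labelled as controls that spent 1 h on the same platform without water. The tissue was taken at the end of the hour. The tissue was not sorted, so fewer microglia and less RNA per microglial cell cannot be told apart in these values.

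Microglia settle in the brain before birth and depend on signals from neighbouring cells to survive and to keep their identity. Csf1r is the receptor for the growth factors Csf1 and Il34, and its signal keeps microglia alive. Cx3cr1 receives fractalkine, the product of Cx3cl1, from neurons, and P2ry12 senses ADP and steers microglial processes. Trem2 is a lipid-sensing receptor that signals through the adaptor Tyrobp. C1qa, C1qb and C1qc encode the 3 chains of C1q, which starts the classical complement pathway and takes part in synapse pruning. Aif1 encodes Iba1, an actin-binding protein used to stain microglia and other macrophages, and Tmem119 is a membrane protein used to tell microglia from other macrophages.

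The libraries held between 9248520 and 10502029 counts. The labels and the tables' headings point in opposite directions on one reading. The count columns are headed WC in the 3 libraries labelled WAS and WS in the 3 libraries labelled control, and neither heading is defined. Groups follow the labels here, and if the headings mark the true groups, all directions below are reversed. WAS replicate 2 stood apart from the other libraries labelled WAS. Its chi-square per degree of freedom over the genes tested was 18.5 against WAS replicate 1 and 11.6 against WAS replicate 3, but 5.79 and 6.04 against control replicates 1 and 2. Values without that library are given beside results that it moved across a threshold or turned. The summed counts of choroid plexus genes ran over the 6 libraries from 19.1 to 1260 CPM (counts relative to the library total), with low and high libraries in both groups.

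C1qb and C1qc lie next to each other on mouse chromosome 4, on the minus strand, with C1qa beside them. In the GENCODE M21 annotation of GRCm38 (mm10), C1qb spans chr4:136880129-136886187, C1qc spans chr4:136889804-136893065 and C1qa spans chr4:136895917-136898803. The promoters of C1qb and C1qc are shown because they belong to neighbouring genes with close levels in this tissue. Capitals mark GAGGAA or its reverse complement TTCCTC, the core of sites bound by PU.1, the myeloid lineage factor encoded by Spi1. The windows searched are the 250 bases before each gene's start in RefSeq (GRCm38.p6), and they are written 5′ to 3′ on the gene's strand. That of C1qb is chr4:136886201-136886450. For C1qc the GENCODE start lies 151 bases upstream of the RefSeq start, within the window, so only the 99 bases before both starts are shown, at chr4:136893066-136893164.
C1qb: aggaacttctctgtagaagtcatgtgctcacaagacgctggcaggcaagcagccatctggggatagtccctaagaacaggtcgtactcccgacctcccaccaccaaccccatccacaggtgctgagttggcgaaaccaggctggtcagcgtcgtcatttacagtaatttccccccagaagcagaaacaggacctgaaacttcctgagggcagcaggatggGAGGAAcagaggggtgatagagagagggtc
C1qc: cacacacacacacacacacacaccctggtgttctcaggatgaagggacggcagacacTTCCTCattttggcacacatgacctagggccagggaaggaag
The motif began 30 bases before the start of C1qb, on the gene's strand, and 193 bases before the RefSeq start of C1qc, on the other strand, which is 42 bases before its GENCODE start. Promoters were found for 6 of the 9 genes, and 4 of these windows, those of C1qb, C1qc, Aif1 and Trem2, held the motif on either strand. Over all 32851 promoter windows of the same length, 23.3% held it. By the GENCODE starts, the motif of Aif1 lies within the gene, as does the whole window of Cx3cr1, which held none. Promoters of Tmem119, Csf1r and C1qa were not in the table used. A match of these letters describes the sequence and was not linked to the counts.

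All 9 genes were detected in every library, with counts from 45 for Trem2 to 1278 for Csf1r. Levels are given as CPM of the library total. A transcript gives about 1 read in a 3′ method whatever its length, so the levels were not divided by length. Over the 6 libraries the order was Csf1r at 119 ± 10.4 CPM (SD, n = 6), Cx3cr1 at 84.0 ± 10.1 CPM, C1qa at 38.6 ± 3.29 CPM, C1qb at 28.5 ± 3.73 CPM, C1qc at 25.3 ± 1.31 CPM, P2ry12 at 14.6 ± 2.11 CPM, Tmem119 at 14.6 ± 2.78 CPM, Aif1 at 9.49 ± 2.47 CPM and Trem2 at 5.97 ± 0.947 CPM. The highest mean was 19.9 times the lowest. The neighbours C1qb and C1qc, P2ry12 and Tmem119, and Tmem119 and Aif1 did not differ by more than the sum of their SDs, whereas the other 5 neighbouring pairs did. Together the 9 genes made up between 0.0312% and 0.0372% of a library's counts.

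**Figure D1:**
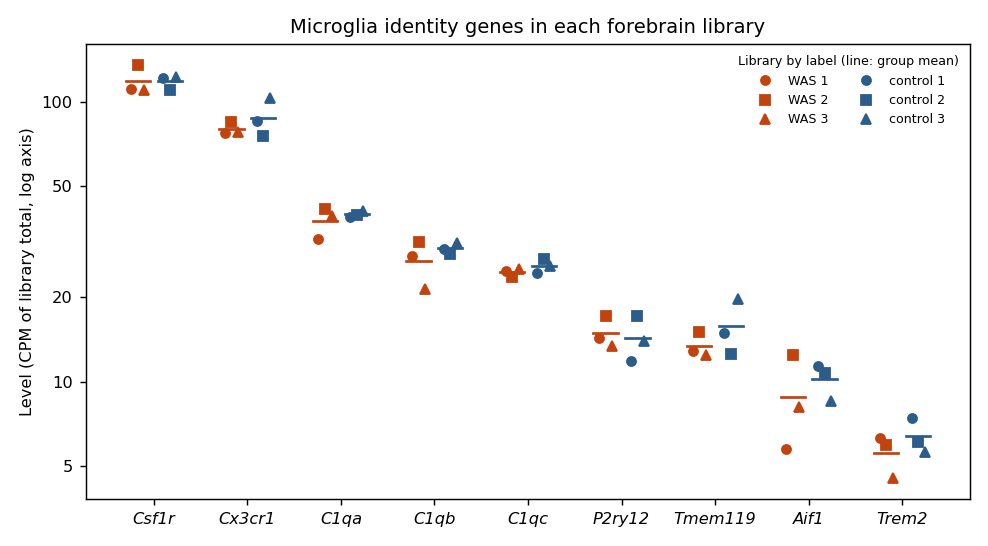
Level of each microglia identity gene in CPM of the library total (log axis), with 1 point per library and a line at each group mean, for the 3 libraries labelled WAS and the 3 labelled control. The genes run from Csf1r at 119 CPM to Trem2 at 5.97 CPM over the 6 libraries, and the groups overlap for each gene.

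For the receptors of growth factor and fractalkine, the groups were close. Csf1r had 1121, 1259 and 1095 counts in WAS replicates 1, 2 and 3 and 1278, 1147 and 1231 counts in control replicates 1, 2 and 3. WAS replicate 2 had the highest level of the 6 libraries, and the groups overlapped. The group means were 119.1 ± 14.8 CPM for WAS labels and 118.5 ± 7.0 CPM for control labels (SD, n = 3 each). The fitted log2 difference, WAS minus control, of Csf1r was -0.03 (SE 0.10), and its direction turned around with total-count scaling (0.0062). Cx3cr1 had 779, 783 and 777 counts against 895, 787 and 1027. The libraries labelled WAS lay close to each other, and control replicate 3 was the highest at 103 CPM. The means were 80.0 ± 4.08 CPM for WAS labels against 88.0 ± 13.8 CPM for control labels (SD, n = 3 each), with a log2 difference of -0.18 (SE 0.12) and, in the quasi-likelihood fit of edgeR, a Benjamini-Hochberg adjusted p of 0.815.

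Both of these counts can hold reads of other genes. In the annotation, 873 bases of the last exon of Csf1r overlap exons of Hmgxb3 on the opposite strand, and the strand setting of the counting is not given in the sources used here. Hmgxb3 itself held between 176 and 231 counts per library. For Cx3cr1, 2 of 3 annotated coding transcripts end in a stretch that shares 50 bases with transcripts of 10 other genes, and multiple alignments were counted. Exons of Cx3cr1 also overlap those of Gm33858, an antisense gene that is no entry of the count tables, over 78 bases. For the other 8 genes, the last 500 bases of the coding transcripts shared no such stretch with another gene.

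P2ry12, the ADP receptor, was the only one of the 9 genes with a log2 difference above 0. It had 144, 158 and 134 counts under the WAS label and 124, 178 and 140 under the control label, with both extremes at control replicates 1 and 2 by count. The log2 difference was 0.02 (SE 0.18), and it turned to -0.09 when WAS replicate 2 was dropped and to -0.11 when control replicate 1 was. P2ry12 lies entirely within Med12l, which is read from the opposite strand, and 9 of its exon bases overlap exons of Med12l. Med12l had 493, 429 and 424 counts against 408, 359 and 383 and a log2 difference of 0.26 (SE 0.10, edgeR adjusted p = 0.632), and its groups did not overlap. Its unadjusted p of 0.0268 rose above 0.05 with DESeq2 (0.0534), with limma (0.0547) and when WAS 1 (0.0813), WAS 2 (0.0521) or control 2 (0.103) was dropped, where the log2 difference was 0.21 to 0.26. The part of Med12l reads in the P2ry12 counts was not tested. Tmem119 had 130, 139 and 124 counts against 157, 130 and 197. Control replicate 3 was the highest at 19.7 CPM, the same library that was highest for Cx3cr1. The log2 difference of Tmem119 was -0.26 (SE 0.19), the lowest of the 9 genes. Without control replicate 3, the log2 differences of Cx3cr1 and Tmem119 were -0.04 and -0.06, and without control replicate 2 they were -0.27 and -0.40.

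The 3 chains of C1q did not share one pattern over the libraries. C1qa had 325, 384 and 390 counts under the WAS label and 406, 409 and 407 under the control label, and its lowest level was in WAS replicate 1 at 32.3 CPM. C1qb had 283, 292 and 214 counts against 313, 298 and 313, and its lowest level was in WAS replicate 3 at 21.4 CPM. C1qc had 251, 219 and 253 counts against 257, 285 and 259, with its lowest level in WAS replicate 2 at 23.7 CPM. Each chain was thus lowest in a different library labelled WAS, and in each chain another library labelled WAS lay within or above the control libraries. The ratio of C1qb to C1qa counts was between 0.729 and 0.771 in the control libraries and 0.871, 0.760 and 0.549 in WAS replicates 1, 2 and 3. The log2 differences were -0.11 for C1qa (SE 0.12), -0.19 for C1qb (SE 0.15) and -0.11 for C1qc (SE 0.12). When single libraries were dropped, C1qa ran from -0.19 without WAS replicate 2 to -0.02 without WAS replicate 1, C1qb from -0.31 without WAS replicate 2 to -0.04 without WAS replicate 3, and C1qc from -0.16 without control replicate 1 to -0.07 without control replicate 2.

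Aif1 and Trem2 had the fewest counts. Aif1 had 58, 115 and 81 counts under the WAS label and 120, 111 and 85 under the control label. WAS replicate 1 was the lowest at 5.76 CPM and WAS replicate 2 the highest at 12.4 CPM, so that both extremes carried the same label. The log2 difference of Aif1 was -0.26 (SE 0.26, edgeR adjusted p = 0.902), and it was -0.60 without WAS replicate 2, with an unadjusted p of 0.0276 and an adjusted p of 0.269. Without WAS replicate 1, the lowest library, it was -0.03 with an unadjusted p of 0.887 by edgeR. Trem2 had 63, 55 and 45 counts against 78, 63 and 56. The log2 difference of Trem2 was -0.23 (SE 0.23), and WAS replicate 3 was the lowest at 4.51 CPM. The value was -0.10 without that library and -0.12 without control replicate 1.

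**Figure D2:**
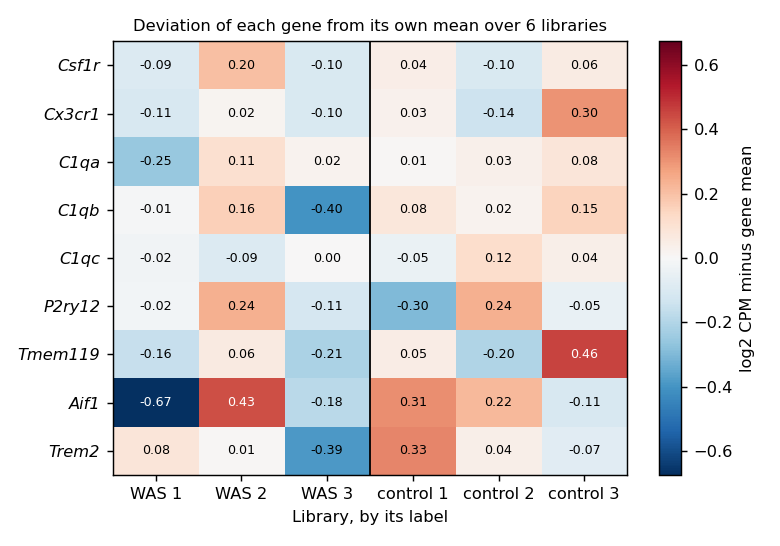
Deviation of the log2 CPM of each gene (rows) from its own mean in each library (columns), with libraries labelled WAS to the left of the line. Most genes lie below their mean in WAS replicates 1 and 3 and above it in WAS replicate 2, and Aif1 has the widest range, from -0.67 to 0.43.

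As a group, 8 of the 9 genes had log2 differences below 0, where 49.8% of all genes tested did. The count was 7 with total-count scaling, as Csf1r turned. Their median was -0.18, beside a median of 0.00088 over all genes tested. No gene reached an unadjusted p under 0.05 by edgeR, against 7.24% of the genes tested, and the unadjusted p of the 9 genes ran from 0.158 to 0.909. Their adjusted p ran from 0.815 to 0.990. With DESeq2 and with limma on quantile-normalized counts, 0 of the 9 genes had an unadjusted p under 0.05, where 5.82% and 5.7% of all genes tested did, so a count of 0 among 9 is near the background. For none of the 9 genes did the groups fail to overlap, which occurred for 12.2% of the genes tested. The study's own cut, which asks for a 1.5-fold change with an unadjusted p under 0.05, was met by 2.49% of the genes tested and by 0 of the 9. Over the whole table, 0 of 15239 genes passed an adjusted p of 0.05 by edgeR, 1104 had an unadjusted p under 0.05, and DESeq2 gave 22 genes past the adjusted threshold.

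The 95% intervals give the range of differences that the values leave possible. For 6 genes, Csf1r, Cx3cr1, C1qa, C1qb, C1qc and P2ry12, the interval lay within a fold change of 1.5 in either direction. That of Csf1r ran from 0.837 to 1.14 times the control level. For Tmem119, Aif1 and Trem2 the intervals reached down to 0.624, 0.560 and 0.597 times the control level. The intervals are those of the fit with all 6 libraries and, with 3 libraries a group, are wide for the genes with few counts.

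**Figure D3:**
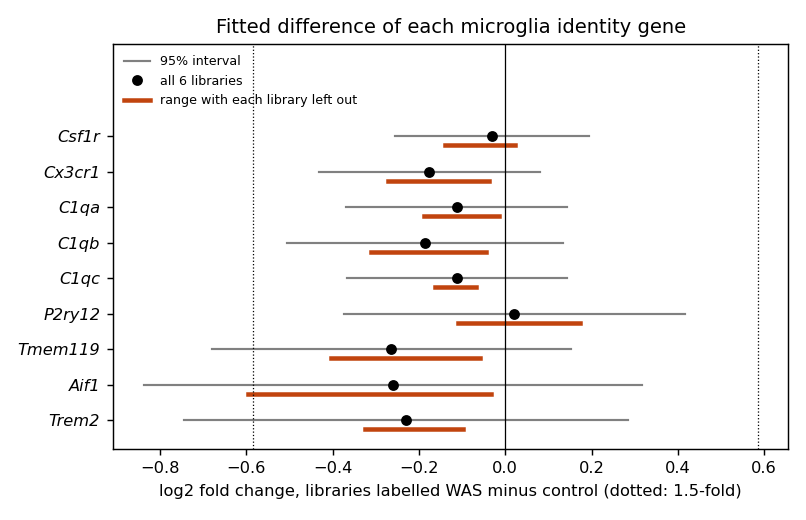
Fitted log2 difference of each gene, libraries labelled WAS minus control (points), with its 95% interval (grey lines) and the range of the fold change when single libraries were dropped (red bars). Each of the 9 intervals spans 0, and the bars of Csf1r and P2ry12 cross it.

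The libraries differed in their total level of these genes. The summed level was 313, 368 and 312 CPM in WAS replicates 1, 2 and 3 and 345, 328 and 372 CPM in control replicates 1, 2 and 3. WAS replicate 2 was the second highest of the 6 libraries, and WAS replicates 1 and 3 were the lowest. The group means were 331.1 ± 32.1 CPM for WAS labels and 348.7 ± 22.2 CPM for control labels (SD, n = 3 each). The log2 ratio of the means was -0.075, with -0.16 after dropping WAS replicate 2 and -0.025 after dropping control replicate 3. Of the 9 genes, 8 were above their own mean in WAS replicate 2, 1 in WAS replicate 1 and 2 in WAS replicate 3. The median log2 difference of the 9 genes became -0.22 after WAS replicate 2 was left out, and -0.083 after control replicate 3 was.

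The coefficient of variation within groups, which holds differences between mice as well as counting error, ran from 4.76% for C1qc to 29.2% for Aif1, and it was above the counting error for 8 of the 9 genes. That of C1qc was below its counting error of 6.29%. For Aif1 the counting error was 10.6%. Since PCR copies were counted as reads, this counting error is a lower limit of the technical error. Over the 6 libraries, the 36 pairs of genes had a median Pearson correlation of log2 CPM of 0.23, from -0.64 for Csf1r and C1qc to 0.99 for Cx3cr1 and Tmem119. The correlation of Cx3cr1 and Tmem119 was 0.98 over the 4 libraries left without control replicates 2 and 3, and Spearman's rho over the 6 libraries was 0.77. These are descriptions over 6 libraries that share their depth and dissection with every gene compared.

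Of 35 other genes of microglia or of macrophages in general, all were tested and 26 had log2 differences below 0, where 49.8% of all genes tested did. Their median was -0.14, and dropping single libraries moved it to between -0.21 (WAS replicate 2 dropped) and -0.07 (control replicate 2 dropped). None had an unadjusted p under 0.05 by edgeR, against 7.24% of all genes tested, and their log2 differences ran from -0.63 for Runx1 to 0.40 for Ptprc. Some of these genes, such as Bhlhe41, are also used by other cells of the brain. Ctss, the most abundant and the gene of the lysosomal protease cathepsin S, had 587, 727 and 633 counts against 705, 691 and 834 and a log2 difference of -0.16 (SE 0.13). Without WAS replicate 2 it was -0.29, with an unadjusted p of 0.0337 and an adjusted p of 0.302 by edgeR, whereas dropping WAS replicate 1 gave -0.07 and dropping control replicate 3 gave -0.03. Bhlhe41, a transcription factor and the next most abundant, was at 0.10 (SE 0.10). The summed level of the 35 genes was 387, 481 and 402 CPM in WAS replicates 1, 2 and 3 against 424, 452 and 455 CPM. As for the identity genes, WAS replicates 1 and 3 were the lowest libraries, and WAS replicate 2 was here the highest.

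The ligands of these receptors had log2 differences in both directions. Of 9 listed ligands and other partners, 8 were tested, and 5 had log2 differences above 0. Tgfb1 was listed at 0 counts in all libraries. That allows up to 0.324 CPM in the shallowest library if its reads were counted under that entry, which was not tested. Cx3cl1, the ligand of Cx3cr1, had 3455, 4643 and 3908 counts under the WAS label and 5566, 5499 and 4159 under the control label, and the groups overlapped through WAS replicate 2 and control replicate 3. Its log2 difference was -0.29 (SE 0.14, edgeR adjusted p = 0.697), with an unadjusted p of 0.0561. That p was 0.0294 with DESeq2, 0.0286 with no filter on low counts and 0.0223 without control replicate 3 (-0.39), but 0.181 with limma and 0.188 without WAS replicate 1 (-0.18). Without WAS replicate 2 the log2 difference was -0.46, with an adjusted p of 0.0309. In that fit 491 of 15246 genes tested passed an adjusted p of 0.05 by edgeR. Il34, a neuronal ligand of Csf1r, had 614, 709 and 554 counts against 759, 736 and 759 and a log2 difference of -0.22 (SE 0.12). Its unadjusted p was 0.0913 by edgeR. Without WAS replicate 2 the log2 difference of Il34 was -0.36, with an unadjusted p of 0.00344 and an adjusted p of 0.0807. Without WAS replicate 3 the value for Il34 was -0.13, with an unadjusted p of 0.325 by edgeR. Csf1, the other ligand, was at 0.17 (SE 0.21), at 0.35 without WAS replicate 2 and at -0.12 without WAS replicate 3, which held 203 of its counts. Apoe, a lipid carrier that Trem2 binds, was the most abundant of the list at 1662 ± 111 CPM for WAS labels against 1445 ± 167 CPM for control labels (SD, n = 3 each), with a log2 difference of 0.16 (SE 0.097). The value for Apoe was 0.22 without WAS replicate 2 (unadjusted p 0.0395, adjusted p 0.326 by edgeR) and 0.27 without control replicate 3 (unadjusted p 0.0114, adjusted p 0.573).

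Cx3cl1 and Il34 are made mainly by neurons in the forebrain, and some neuronal markers also differed between the groups. The summed level of 10 neuronal genes ran from 5710 to 6240 CPM in the libraries labelled WAS and from 6380 to 6900 CPM in those labelled control, without overlap. Of the 10 genes, 3 were lower in the libraries labelled WAS at an unadjusted p under 0.05, Syt1, Rbfox3 and Slc17a7, where 3.4% of all genes tested were. Slc17a6 was higher, where 3.85% were, at 1710, 284 and 1339 counts in WAS replicates 1, 2 and 3 against 402, 304 and 273. Slc17a6 encodes the glutamate transporter typical of thalamus and other deep regions, and Slc17a7 that of cortex. None of the 10 was at 0. Syt1 and Snap25 were the most abundant, at 2519 and 1550 CPM over the 6 libraries, and weigh most in the sum. Of the 10, 7 had log2 differences below 0 and 3 above, with a median of -0.051. Gad1, Slc32a1 and Stmn2 were at -0.05, -0.02 and -0.06, and Gad2 and Nefl at 0.11 and 0.12. Of 10 astrocyte genes, 7 had log2 differences above 0, with a median of 0.18. Aqp4 and Aldoc were higher at an unadjusted p under 0.05 by edgeR, where 3.85% of all genes tested were. Slc1a2, the most abundant, and Slc1a3 were at -0.10 and -0.11. Astrocyte sums were 4632 ± 86.7 CPM for WAS labels and 4550 ± 17.6 CPM for control labels (SD, n = 3 each). The log2 ratio of the summed levels was 0.026 for the astrocyte genes and -0.14 for the neuronal genes. The part of these differences in the values of Cx3cl1 and Il34 was not tested.

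Among 11 genes of signalling from Trem2 and Csf1r, 10 were tested and 7 had log2 differences below 0, with a median of -0.044. Tyrobp, the adaptor of Trem2, had 57, 95 and 94 counts against 101, 70 and 90. WAS replicate 1 was the lowest, as for Aif1 and C1qa, and the log2 difference of -0.04 (SE 0.25) changed sign with 3 of the 6 libraries dropped in turn. Grb2 and Adam10, the most abundant, were at -0.05 and -0.17 (SEs 0.077 and 0.11), and Adam10 moved to -0.07 on dropping WAS replicate 1 and to -0.10 on dropping control replicate 3. Dok1, an adaptor that restrains receptor signals, was the only gene of the list that met the study's criteria. Over all genes tested, 2.49% met them. Dok1 had 26, 29 and 20 counts against 3, 11 and 16. Its log2 difference was 1.34 (SE 0.53, edgeR adjusted p = 0.632), and its unadjusted p was 0.0615 without WAS replicate 2 (log2 difference 1.18), 0.0841 without control replicate 1 (0.90) and 0.0555 without control replicate 2 (1.40).

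The partners of C1q in the classical complement pathway included genes with larger differences than C1q itself. Of 14 genes, 13 were tested. At an unadjusted p under 0.05, 3 were higher in the libraries labelled WAS, where 3.85% of all genes tested were, and 1 was lower, where 3.4% were. C1ra, a protease that C1q activates, had 18, 14 and 23 counts under the WAS label and 47, 50 and 28 under the control label, and the groups did not overlap. Its log2 difference was -1.14 (SE 0.34, edgeR adjusted p = 0.539), and it stayed between -1.33 and -0.99 when single libraries were dropped. C1ra is among the genes that the study selected from these same libraries, so the difference is not independent evidence on this gene, and its direction here rests on the labels. Serping1, which encodes the inhibitor of C1r and C1s, had 162, 118 and 177 counts against 121, 106 and 109 and a log2 difference of 0.48 (SE 0.17, adjusted p = 0.587). C4b, whose product is cleaved by C1s, had 89, 64 and 106 counts against 53, 60 and 71 and a log2 difference of 0.52 (SE 0.24). Cd59a, which protects cells from complement, was at 0.37 (SE 0.16). Csmd1, a complement regulator of neurons and the most abundant gene of the list, was at 0.04 (SE 0.11). C4b and Cd59a did not reach an unadjusted p under 0.05 with DESeq2 or limma, at about the same size (0.52 and 0.46 for C4b, 0.36 and 0.38 for Cd59a). Each also lost it with 4 of the 6 libraries dropped in turn, where C4b was as low as 0.36 without WAS replicate 3 and Cd59a as low as 0.21 without control replicate 2, and Serping1 lost it without WAS replicate 3 (0.37) or control replicate 2 (0.43).

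**Figure D4:**
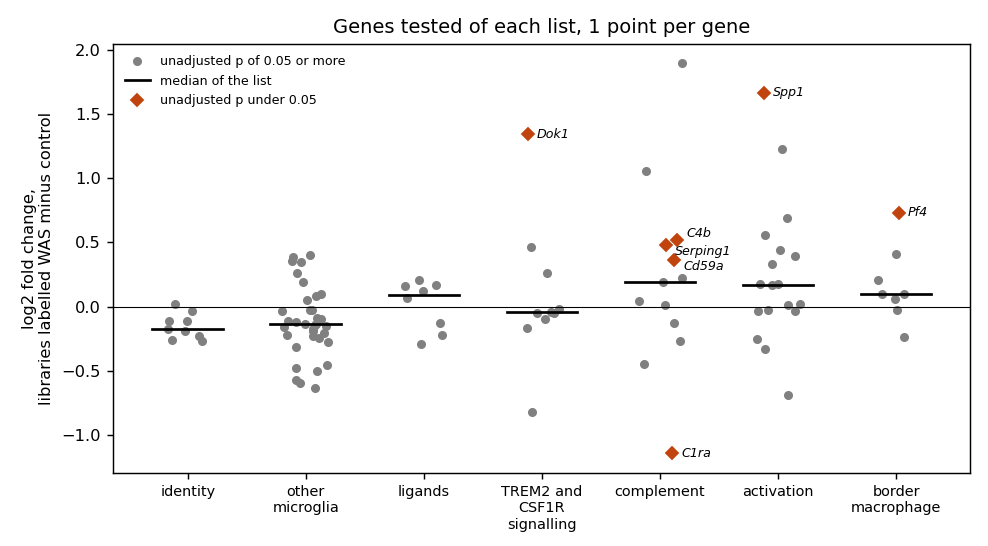
Log2 difference, libraries labelled WAS minus control, of each gene tested in 7 lists (1 point per gene), with the median of each list as a line and genes with an unadjusted p under 0.05 as named diamonds. The identity genes and the other microglia genes hold no such gene, and their medians are -0.18 and -0.14.

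Genes of activated microglia were mostly at low levels. Of 28 such genes, 18 were tested, 12 had log2 differences above 0 and the median was 0.17. The cytokine gene Tnf was at 0 counts in all 6 libraries, which allows up to 0.324 CPM in the shallowest if its reads were counted. Il6 had 3 counts, all in control replicate 1. Il1b had 6, 19 and 2 counts against 3, 11 and 5. Ctsb and Ctsd, which encode lysosomal proteases used by many cells, were the most abundant, with log2 differences of -0.04 and 0.02 (SEs 0.089 and 0.078). Both changed sign with a library left out, Ctsb without WAS replicate 1 (0.015) and Ctsd without WAS replicate 2 (-0.022). Spp1, the gene of osteopontin, was the only gene of this list that met the study's criteria, where 2.49% of all genes tested did. It had 55, 42 and 117 counts under the WAS label and 15, 17 and 36 under the control label. Its log2 difference was 1.67 (SE 0.44, edgeR adjusted p = 0.514). Dropping WAS replicate 3 gave 1.13, and dropping WAS replicate 2 gave 1.91 with an adjusted p of 0.0194. In the fit without WAS replicate 2, 491 of 15246 genes tested passed an adjusted p of 0.05 by edgeR. Osteopontin is also made by neurons and by cells of the meninges and vessels.

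Markers of other macrophages and of blood were examined because Csf1r, Cx3cr1, Aif1 and the C1q genes are also used by macrophages at the borders of the brain. Of 11 border macrophage genes, 8 were tested, and 6 had log2 differences above 0, with a median of 0.10. The values were -0.24 for Mrc1, -0.03 for Lyve1, 0.10 for Cd163, 0.10 for Cbr2 and 0.41 for F13a1. Maf and Stab1, the most abundant, were at 0.06 and 0.21, and Stab1 ran from 0.098 to 0.37 when control replicate 2 or 3 was dropped and was 0.32 after dropping WAS replicate 1. Pf4, a chemokine gene of border macrophages and platelets, alone met the study's criteria in this list, where 2.49% of all genes tested did. It had 41, 38 and 34 counts against 32, 18 and 20 and a log2 difference of 0.73 (SE 0.32, edgeR adjusted p = 0.681). The groups did not overlap for Pf4 and for Maf, where they did not for 12.2% of all genes tested. Cd209f, which was not tested, had 0, 1 and 0 counts against 9, 4 and 5. The unadjusted p of Pf4 was not under 0.05 with DESeq2 (log2 difference 0.73) and with 5 of the 6 libraries dropped in turn (0.57 to 0.81). Without WAS replicate 2 it was 0.0881, at a log2 difference of 0.69. The summed level of the 11 genes lay between 58.8 and 65 CPM in the libraries labelled WAS and between 48.8 and 61.6 CPM in those labelled control, and Siglec1 was at 0. Of 12 genes of blood leukocytes, 11 were in the table, with a summed level between 2.98 and 6.16 CPM in any library. The 5 genes of red blood cells summed to between 1310 and 2210 CPM in the libraries labelled WAS and between 1190 and 1570 CPM in those labelled control. All 5 had log2 differences above 0, from 0.20 to 0.43, and none had an unadjusted p under 0.05.

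**Figure D5:**
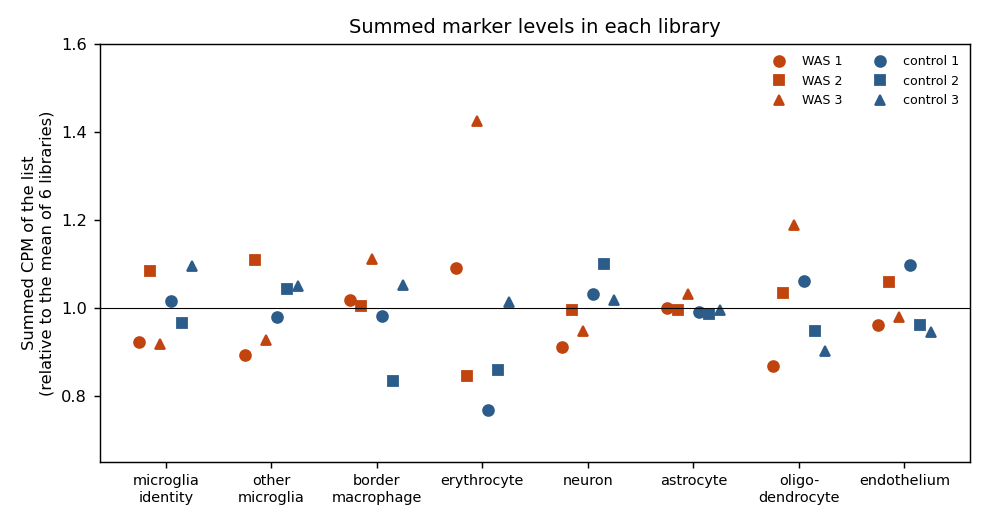
Summed CPM of 8 marker lists in each library, divided by the mean of the 6 libraries, with libraries labelled WAS in red and control in blue. Both microglia lists are lowest in WAS replicates 1 and 3, at 0.893 to 0.927 of the mean, and the neuronal list is lower in every library labelled WAS than in any labelled control.

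The genes whose pattern over the 6 libraries was most like the mean of the 9 identity genes were Gng7, Cpne5, Gabrd, Lingo3 and Il34. They were found among 9393 genes with a mean of at least 10 CPM, and their Pearson correlations of log2 CPM with that mean were 0.988, 0.986, 0.985, 0.984 and 0.984. Without WAS replicates 1 and 3, which lay farthest from the median of the pattern, the correlations over the remaining 4 libraries were between 0.867 and 0.974. Gng7 had 296, 1076 and 312 counts in WAS replicates 1, 2 and 3 against 745, 773 and 955, and Gabrd, a GABA-A receptor subunit of neurons, had 171, 340 and 141 against 323, 332 and 361. All 5 were low in WAS replicates 1 and 3. The 14 other microglia genes above 10 CPM had a median correlation of 0.69 with the pattern, from -0.051 to 0.933. The 10 neuronal genes had a median of 0.55, from -0.948 to 0.818. For the 9 astrocyte genes compared it was -0.79, from -0.934 to 0.754. Over all 9393 genes the median was -0.091, and the correlations ran from -0.996 to 0.988. These values rest on 6 libraries and on the gap between WAS replicates 1 and 3 and the other libraries.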

How the data were processed

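Bowtie2 was used by the authors to map the 75 bp single-end reads to mm10, per the labels, and Bedtools to count them by gene, reads with several alignments included. The deposited values are these raw read counts, with 1 table per library and no normalization. The annotation, the tool versions and the strand setting are not given in the sources used here. For 15239 genes, TMM factors and quasi-likelihood F tests came from edgeR 4.0.16 (R 4.3.3); these were the genes with a mean log2(quantile-normalized count + 1) of at least 2, with Benjamini-Hochberg adjustment over all of them. Levels are CPM of the library total, with an offset of 0.5 CPM for correlations. Log2 differences are fold changes of the libraries labelled WAS relative to control, each SE was obtained from the fold change and its F statistic, and intervals are at 95%. The floor was 3 counts. The 9 genes and the gene lists were chosen with earlier results of these data known. The genes named are the 9, from each list of microglia, macrophage or partner genes the 2 most abundant and those meeting the study's criteria, genes whose exons overlap one of the 9, and the 5 most alike in pattern. Other genes named were chosen after their values were seen. Among them are Il34, Csf1, Tyrobp, Serping1, C4b, Runx1, Ptprc, Il1b, Il6 and Tnf. Mrc1, Cd163, Lyve1, Cbr2, F13a1, Cd209f, Aqp4, Aldoc, Slc1a2, Slc1a3 and the neuronal genes are others. Alternatives were total-count scaling, DESeq2 1.42.0, limma 3.58.1 on quantile-normalized log2(count + 1), 2 other filters, a replicate block and each library left out. Vsir was found under an older symbol. The labels number the replicates and do not say that they share a cage or day.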

Additional observations from a re-analysis of the deposited data

How the results depend on the processing

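The median log2 difference of the 9 identity genes stayed below 0 under all alternatives, between -0.22 and -0.083 with each library left out, and the log2 ratio of their summed level ran from -0.16 to -0.025. With TMM scaling of the library totals, chosen after seeing the data, that ratio was -0.11. The count of the 9 genes with an unadjusted p under 0.05 was 0 in all fits with 6 libraries and 0 to 1 with each library left out, the gene being Aif1 without WAS replicate 2 and Cx3cr1 without control replicate 2 (-0.27, unadjusted p 0.0463 and adjusted p 1 by edgeR). In those fits 13.7% and 4.09% of all genes tested had such a p. Csf1r turned to 0.0062 with total-count scaling and to between 0.0076 and 0.023 when WAS 1 (0.012), WAS 3 or control 3 was dropped, and its lowest value was -0.14. P2ry12 ran from -0.11 to 0.17, at -0.086 without WAS replicate 2. Signs also turned for Csf1 without WAS replicate 3 (-0.12, highest 0.35), for Tyrobp when WAS 1 (0.18), control 1 (0.052) or control 3 (0.017) was dropped (lowest -0.20), for Ctsb with total-count scaling (0.0012) and without WAS replicate 1 (0.015), and for Ctsd without WAS replicate 2 (-0.022, and at most 0.042 without any other library). Over all genes, 264 to 825 met the study's criteria and 0 to 491 passed an adjusted p of 0.05 with each library left out, both highest without WAS replicate 2. DESeq2 gave 22 genes past the adjusted threshold and the fit with the replicate block 49, among them Spp1 (adjusted p 0.0444). With the block, Cx3cl1 had an unadjusted p of 0.0159 by edgeR. The causes were not tested. Same-numbered libraries of the groups had correlations of deviations of 0.078, 0.0987 and 0.0929, and each library correlated best with its own number, a hint from the data only. Total-count scaling moved the median of all genes to 0.038. The 3 libraries a group and the low counts of Trem2 and Aif1 limit what could be detected.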
